A study of Mus musculus with 24 samples.

Results

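The genes described here are 42 genes of mitosis, listed by name for their roles in cell division, and they are 42 of the 23972 genes in the count table. They cover the switch made of Cdk1 and its cyclins, the mitotic kinases, the spindle checkpoint and the anaphase-promoting complex, the centromere and kinetochore, the kinesins and other proteins of the spindle, the condensins and other proteins of chromosome structure, and the machinery of cytokinesis. All 42 were found in the table. The list, like the other gene lists below, was chosen with earlier results of these data known. No p-value over a list is therefore given. Whole liver of female mice on a high-fat diet at 22°C was analysed by RNA-Seq in 24 libraries of 4 groups. Control mice carried the floxed Lmna alleles without Cre (Lmna fl/fl Adipoq-Cre-), and 7 of them received vehicle and 3 received FGF21. Lmna ADKO mice carried the same floxed alleles with Adipoq-Cre, whose promoter is active in adipocytes and in adipogenic progenitors of the marrow and not in hepatocytes, and 6 of them received vehicle and 8 received FGF21. FGF21 was delivered by an AAV8 vector, and the labels call this treatment a rescue. The floxed alleles and the diet were thus shared by every group, and the deletion was made outside the hepatocytes whose RNA dominates these libraries.

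Entry into mitosis is driven by Cdk1 once it is bound to its A-type and B-type cyclins, and the kinases Plk1, Aurka and Aurkb then direct spindle assembly and chromosome attachment. The checkpoint proteins hold back the anaphase-promoting complex until every kinetochore is attached, after which securin and cyclin B are degraded, the chromosomes separate and the cell divides. Most hepatocytes of an adult liver are out of the cell cycle and many are polyploid, so the messages of these genes are scarce in quiescent liver and rise when hepatocytes or other liver cells proliferate.

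Many promoters of this kind hold a cell cycle genes homology region (CHR), a short element bound by the MuvB complexes that repress such genes in resting cells and activate them in dividing cells, often beside CCAAT boxes, which are bound by NF-Y. RefSeq promoter windows on GRCm38.p6, of 250 bases before and 50 bases after the gene's start, were at hand for 35 of the 42 genes. TTTGAA or TTCGAA, on either strand, was found in 27 of these 35 windows (77.1%), against 19.4% of all 27025 windows. CCAAT, on either strand, was found in 26 of the 35 (74.3%), against 37.9% of all windows, and 2 or more copies in 17 (48.6%), against 12.2%. Both kinds of element stood together in 24 of the 35 windows (68.6%), against 7.70% of all windows. The windows of Nuf2, Nusap1, Ncaph, Mad2l1, Pttg1 and Birc5 held neither string of letters. To show what the shared elements look like, the windows of 3 well-expressed members are given below, 5′ to 3′ on the strand of the gene and cut 30 bases after the start, with complete matches of either kind on either strand in capitals. They are those of the kinetochore subunit Spc25 (minus strand, chr2:69206184-69206463), of the proliferation antigen Mki67 (minus strand, chr7:135716350-135716629) and of the condensin subunit Smc2 (plus strand, chr4:52438971-52439250).
Spc25: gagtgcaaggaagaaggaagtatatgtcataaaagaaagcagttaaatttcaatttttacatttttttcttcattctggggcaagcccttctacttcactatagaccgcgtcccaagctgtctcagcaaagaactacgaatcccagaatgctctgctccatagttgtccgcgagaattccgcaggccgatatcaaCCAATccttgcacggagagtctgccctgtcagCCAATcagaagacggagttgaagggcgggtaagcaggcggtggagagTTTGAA
Mki67: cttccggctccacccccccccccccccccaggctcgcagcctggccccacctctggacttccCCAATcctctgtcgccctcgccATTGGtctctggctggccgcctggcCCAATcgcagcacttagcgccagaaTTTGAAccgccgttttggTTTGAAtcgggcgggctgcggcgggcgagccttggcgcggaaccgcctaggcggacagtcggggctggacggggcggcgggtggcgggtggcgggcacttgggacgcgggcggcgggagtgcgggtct
Smc2: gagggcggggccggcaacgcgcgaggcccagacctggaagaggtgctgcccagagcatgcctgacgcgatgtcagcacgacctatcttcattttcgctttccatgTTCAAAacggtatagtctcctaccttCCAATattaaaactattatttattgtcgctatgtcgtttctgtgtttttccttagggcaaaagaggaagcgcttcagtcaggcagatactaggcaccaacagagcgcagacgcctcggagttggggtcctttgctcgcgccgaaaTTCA
In Spc25, CCAAT began at -55 and -23 and the CHR letters at 24, counted from the start as 0. In Mki67, 3 CCAAT boxes (from -188 to -141) lay before a pair of CHR matches at -116 and -98. In Smc2, a CHR match read on the opposite strand lay at -145 and CCAAT at -119. A second match at 26 is cut by the end of the printed stretch and shows its first letters in capitals. Aurka, which was not called between the genotypes, had 1 CHR match and 2 CCAAT boxes in its window. These matches are descriptions of the letters, and binding was not measured.

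Between 19863304 and 21510054 reads were counted on genes per library, so a count of 3, taken as the floor, corresponded to 0.124 to 0.176 CPM (counts scaled to a common library size with TMM factors), and 59 of the values of the members in single libraries lay at or below it. Lmna, the targeted gene, was not lower but higher in ADKO liver under vehicle (26.7 ± 2.57 CPM, SD, n = 6, against 18.6 ± 2.47 CPM, n = 7, log2 fold change 0.52 ± 0.12). Every vehicle-treated ADKO library (23.6 to 31.0 CPM) lay above every vehicle-treated control (15.7 to 22.1 CPM), and the cause was not tested. Whole liver does not bear on a deletion made in adipocytes. Fgf21 lay between 1.90 and 10.8 CPM in the vehicle-treated controls and between 3.14 and 7.39 in the FGF21-treated controls, and between 4.63 and 10.6 CPM in the vehicle-treated and 2.19 and 9.995 in the FGF21-treated ADKO livers, so its counts did not set the treated livers apart. The hepatocyte marker Alb, at 52490 CPM or more in every library, marks the labelled tissue. Animal numbers had 3 digits in 6 of the 7 vehicle-treated controls and 4 digits in 5 of the 6 vehicle-treated ADKO mice, and what the series of numbers stands for is not stated. Relative to the median of their genotype, log2 CPM fell most steeply with log2 gene length in 3 libraries. Their slopes were -0.154 (control vehicle 3), -0.289 (control FGF21 3) and -0.331 (ADKO FGF21 7). The other libraries had slopes from -0.109 (ADKO FGF21 2) to 0.128 (control FGF21 1). Libraries are numbered within their group by animal number, and nothing in the labels says more of how they were made together or apart.

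Scaled for exon length as well as depth (RPKM), the mitotic genes were low in vehicle-treated control liver. Pttg1, which encodes the separase inhibitor securin, stood apart at a mean of 11.3 RPKM, and the kinetochore subunits Spc24 (2.31 RPKM) and Spc25 (1.64 RPKM) and the condensin subunit Smc4 (1.51 RPKM) followed. All other members lay between 0.0178 RPKM (Cdc25c, the phosphatase that activates Cdk1) and 0.796 RPKM (Aurka). The 42 genes together made up 74.6 ± 10.01 CPM (SD, n = 7) in vehicle-treated controls, 78.8 ± 9.95 CPM (n = 3) in FGF21-treated controls, 116 ± 23.7 CPM (n = 6) in vehicle-treated ADKO livers and 104 ± 21.7 CPM (n = 8) in FGF21-treated ADKO livers.

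The comparison of ADKO with control livers under vehicle asks how the loss of lamin A/C from adipocytes bears on the liver. Most of the mitotic genes were higher in ADKO liver. By edgeR's quasi-likelihood test (Benjamini-Hochberg adjusted p under 0.05 over all genes and a fold above 1.5), 31 of the 42 rose and 0 fell, where 5.12% of all genes were called higher, 3.36% lower and 8.48% in either direction. The median log2 fold change of the 42 was 1.19 against 0.00 over all genes, and single genes ran from -0.14 (Pttg1) to 2.01 (Ttk). At an unadjusted p under 0.05, 38 of the 42 were higher and 0 lower, where 14.2% of all genes were higher and 12.8% lower. The fitted value was higher in ADKO liver for 40 genes and lower for Pttg1 and Cenpa. The call was spread over every role, with 4 of 5 genes of the Cdk1-cyclin switch, 5 of 6 mitotic kinases, 4 of 5 checkpoint and anaphase-promoting complex genes, 7 of 9 genes of the centromere and kinetochore, 5 of 8 of the spindle, 4 of 6 of chromosome structure and 2 of 3 of cytokinesis. In bulk liver, more dividing cells and more message per dividing cell cannot be told apart.

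**Figure D1:**
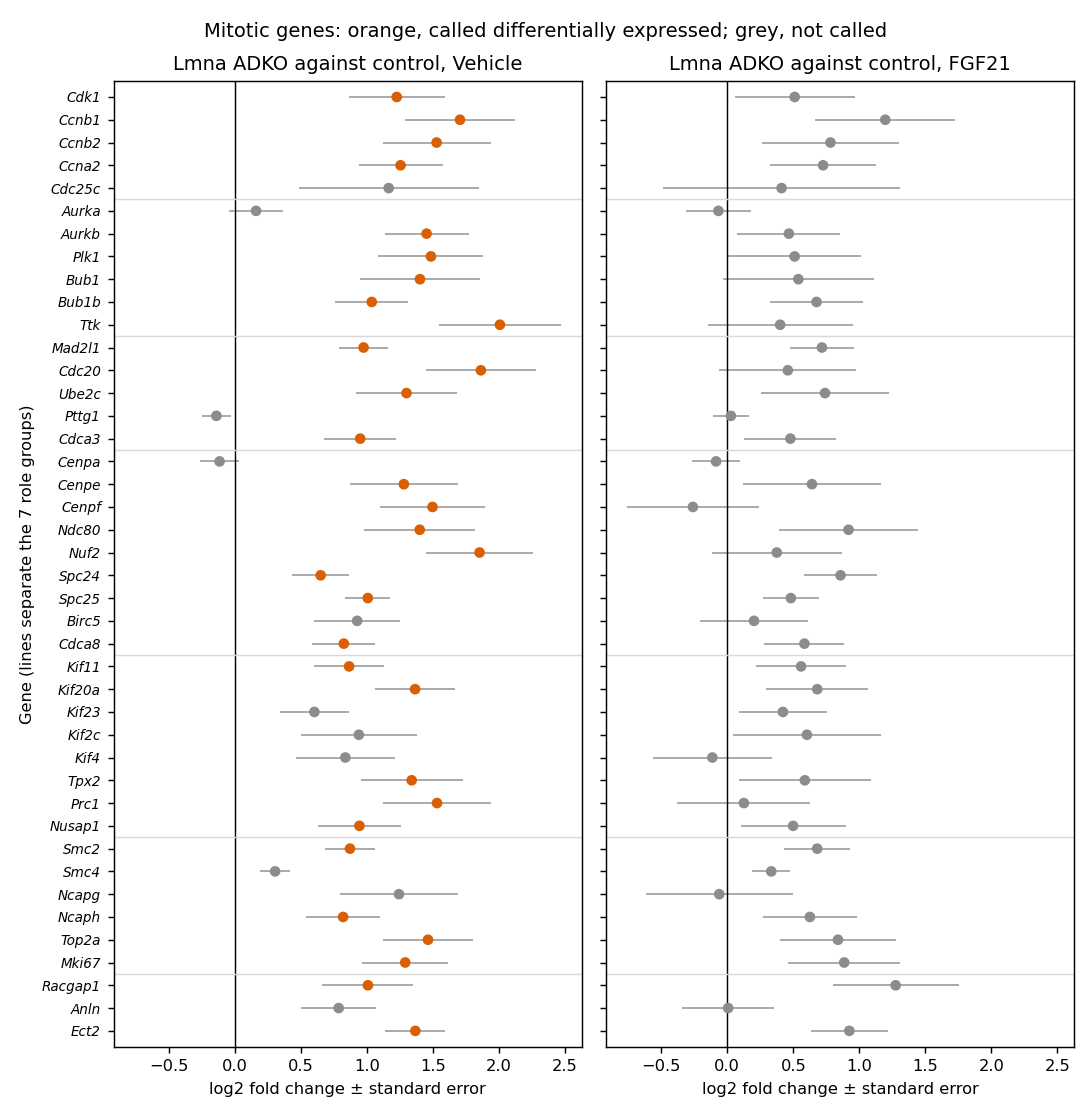
Log2 fold change of each of the 42 mitotic genes between Lmna ADKO and control liver with its standard error, under vehicle (left) and under FGF21 (right), ordered by role. Under vehicle 31 genes were called (orange) and under FGF21 0, with medians of 1.19 and 0.52.

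In the Cdk1-cyclin switch, Cdk1 itself ranged from 0.499 to 2.44 CPM (median 0.778) in vehicle-treated controls and from 1.66 to 4.23 CPM (median 2.22) in vehicle-treated ADKO livers. The groups overlapped through control library 4, which held 2.44 CPM, and the log2 fold change was 1.23 ± 0.37 (SE, edgeR adjusted p = 0.0228). Cyclin A2 (Ccna2), which partners with Cdk1 and Cdk2 from S phase on, ranged from 0.562 to 1.18 CPM (median 1.10) in controls and from 1.02 to 4.30 CPM (median 1.98) in ADKO livers. All ADKO libraries except 2 and 4, at 1.17 and 1.02 CPM, lay above every control (log2 fold change 1.25 ± 0.32, edgeR adjusted p = 0.00683). The B-type cyclins that complete the switch rose further, Ccnb1 by a log2 fold change of 1.70 ± 0.41 and Ccnb2 by 1.53 ± 0.41. Cdc25c had counts of at most 11 in any vehicle-treated library and was not called (1.16 ± 0.68, edgeR adjusted p = 0.282).

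Among the kinases, Ttk (Mps1), which starts the checkpoint at unattached kinetochores, had the highest fold change of all 42 genes (2.01 ± 0.46, edgeR adjusted p = 0.00300). Its levels were 0 to 0.184 CPM in controls and 0.146 to 0.626 CPM in ADKO livers. The counts behind them were 0 to 4 in controls, around the floor of 3, and 3 to 15 in ADKO livers. Plk1 rose by 1.48 ± 0.40, Aurkb, the kinase of the chromosomal passenger complex, by 1.45 ± 0.32, Bub1 by 1.40 ± 0.45 and Bub1b by 1.04 ± 0.28. Aurka, the kinase of the centrosome and spindle poles, was the kinase that was not called. It ranged from 1.36 to 2.56 CPM (median 2.05) in controls and from 1.27 to 2.80 CPM (median 2.51) in ADKO livers. The groups lay over one another, and the log2 fold change was 0.16 ± 0.20 (edgeR adjusted p = 0.666).

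Mad2l1, the checkpoint protein that binds and restrains Cdc20, ranged from 1.99 to 3.36 CPM (median 2.43) in controls and from 4.09 to 6.34 CPM (median 5.15) in ADKO livers. Every ADKO library lay above every control, and the log2 fold change was 0.97 ± 0.19 (edgeR adjusted p = 0.000544). Cdc20, the activator of the anaphase-promoting complex, ranged from 0.244 to 1.197 CPM (median 0.535) in controls and from 0.682 to 5.01 CPM (median 2.43) in ADKO livers. Only ADKO library 4 lay within the control range, and the log2 fold change was 1.86 ± 0.42 (edgeR adjusted p = 0.00300). Ube2c, the ubiquitin-conjugating enzyme that serves the complex, rose by 1.299 ± 0.38. Cdca3 ranged from 1.18 to 1.87 CPM (median 1.61) in controls and from 1.67 to 5.89 CPM (median 2.35) in ADKO livers, with ADKO library 2 alone inside the control range (0.95 ± 0.27, edgeR adjusted p = 0.0175). Securin (Pttg1) ranged from 19.6 to 26.9 CPM (median 20.7) in controls and from 18.7 to 24.2 CPM (median 19.96) in ADKO livers. The most abundant member thus overlapped throughout, with a log2 fold change of -0.14 ± 0.11 (edgeR adjusted p = 0.455).

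At the kinetochore, Spc25 and Spc24 form one end of the Ndc80 complex, the main microtubule coupler, and Ndc80 and Nuf2 form the other. Spc25, whose promoter is printed above, ranged from 2.97 to 7.73 CPM (median 4.73) in controls and from 9.88 to 11.8 CPM (median 10.1) in ADKO livers. No ADKO library overlapped the controls, and the log2 fold change was 1.01 ± 0.17 (edgeR adjusted p = 0.000135). Spc24 ranged from 3.84 to 8.65 CPM (median 5.97) in controls and from 7.41 to 11.7 CPM (median 8.99) in ADKO livers. ADKO library 5, the lowest, was the one inside the control range (0.65 ± 0.22, edgeR adjusted p = 0.0413). Nuf2 rose by 1.85 ± 0.40 and Ndc80 by 1.40 ± 0.42, and of the large kinetochore proteins Cenpf rose by 1.496 ± 0.40 and the kinesin Cenpe by 1.28 ± 0.41. Cdca8 (borealin), of the passenger complex, ranged from 0.515 to 1.33 CPM (median 0.829) in controls and from 1.02 to 2.13 CPM (median 1.66) in ADKO livers (0.82 ± 0.24, edgeR adjusted p = 0.0178). Its partner survivin (Birc5) had a log2 fold change of 0.93 ± 0.33 and missed the call (edgeR adjusted p = 0.0549). The centromeric histone Cenpa lay at 4.54 ± 0.53 CPM (SD, n = 7) in controls and 4.18 ± 1.11 CPM (n = 6) in ADKO livers, with a log2 fold change of -0.12 ± 0.15.

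Of the spindle genes, Kif20a, a kinesin of the central spindle, ranged from 0.487 to 1.05 CPM (median 0.797) in controls and from 0.876 to 3.17 CPM (median 1.82) in ADKO livers. ADKO library 4 was again the only one inside the control range (1.36 ± 0.30, edgeR adjusted p = 0.00215). Prc1, which bundles the antiparallel microtubules of the midzone, rose by 1.53 ± 0.41, Tpx2, the activator of Aurka on the spindle, by 1.34 ± 0.39, Nusap1 by 0.94 ± 0.32 and Kif11, which pushes the spindle poles apart, by 0.86 ± 0.27. Kif23, Kif2c and Kif4 had log2 fold changes of 0.60, 0.94 and 0.84 and were not called, with edgeR adjusted p from 0.132 to 0.162.

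In chromosome structure, Mki67, which coats mitotic chromosomes and is the usual histological mark of proliferation, ranged from 1.22 to 2.51 CPM (median 1.91) in controls and from 2.14 to 9.06 CPM (median 4.14) in ADKO livers. ADKO library 4 lay inside the control range and ADKO library 3 had the highest value of all 24 libraries (1.29 ± 0.33, edgeR adjusted p = 0.00765). Topoisomerase II alpha (Top2a), which untangles sister chromatids, ranged from 0.633 to 1.67 CPM (median 1.12) in controls and from 1.61 to 4.88 CPM (median 3.08) in ADKO livers (1.46 ± 0.34, edgeR adjusted p = 0.00404). The condensin subunit Smc2 ranged from 1.44 to 2.21 CPM (median 1.80) in controls and from 3.07 to 3.96 CPM (median 3.26) in ADKO livers. Its groups did not overlap, and the log2 fold change was 0.87 ± 0.19 (edgeR adjusted p = 0.00198). Smc4, its partner in the condensin ring, ranged from 7.12 to 8.79 CPM (median 7.68) in controls and from 7.89 to 11.8 CPM (median 9.45) in ADKO livers, a log2 fold change of 0.30 ± 0.12 that was not called (edgeR adjusted p = 0.0795). The condensin I subunit Ncaph rose by 0.82 ± 0.28, and Ncapg, of the same complex, had a value of 1.24 ± 0.45 and was not called (edgeR adjusted p = 0.0592).

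In cytokinesis, Ect2, the exchange factor that activates RhoA at the division plane, ranged from 0.590 to 0.828 CPM (median 0.729) in controls and from 1.31 to 2.46 CPM (median 1.85) in ADKO livers. All ADKO livers lay above all controls, and its adjusted p was the lowest of the 42 (1.37 ± 0.23, edgeR adjusted p = 0.000104). Racgap1, which recruits Ect2 to the midzone, rose by 1.01 ± 0.34, and the scaffold Anln had a value of 0.79 ± 0.29 and was not called (edgeR adjusted p = 0.0624). Over all roles, Mad2l1, Spc25, Smc2 and Ect2 were the 4 of the 42 genes whose ADKO values lay wholly above the controls, where 4.22% of all genes did so.

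**Figure D2:**
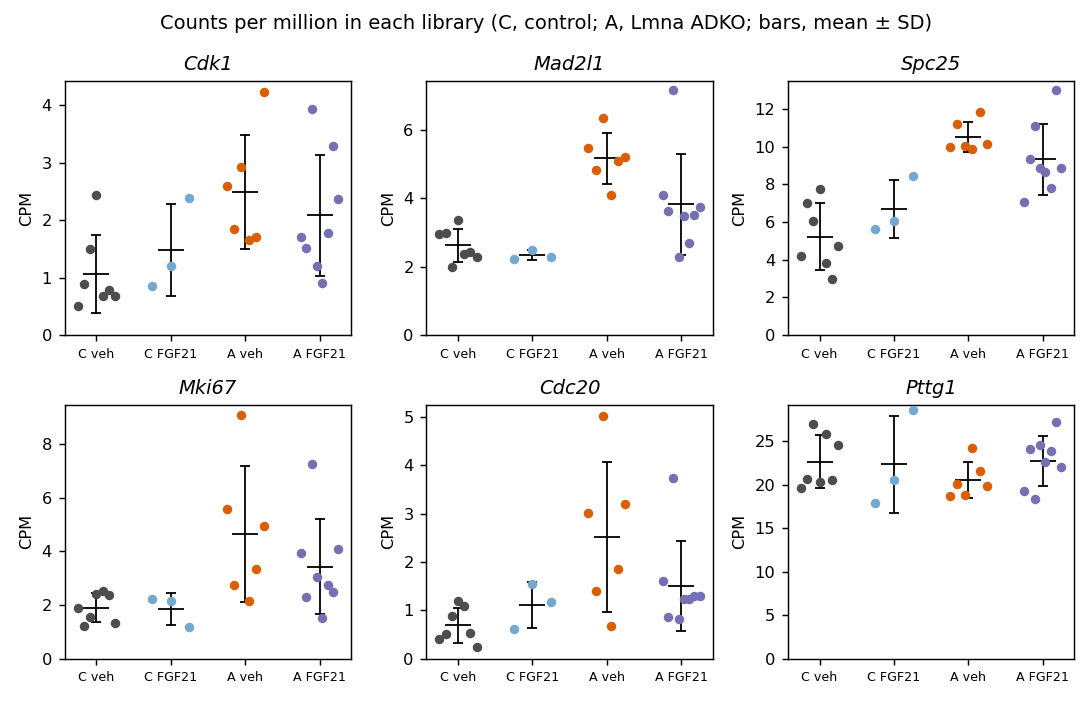
CPM of Cdk1, Mad2l1, Spc25, Mki67, Cdc20 and Pttg1 in each library of the 4 groups, with the mean ± SD. Mad2l1 and Spc25 do not overlap between vehicle-treated controls and ADKO livers, Cdc20 and Mki67 vary widely among ADKO livers, and Pttg1 lies between 17.9 and 28.6 CPM in all groups.

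The ADKO livers differed among themselves, and the genes were high or low together from library to library. Vehicle-treated controls showed this too, as libraries 4 and 5 were above their group's median for 32 and 36 of the 42 genes. Relative to the mean of the vehicle-treated controls on the log2 CPM scale, the median of the 42 genes lay between -0.18 and 0.38 in the 7 vehicle-treated controls. In the 6 vehicle-treated ADKO livers it was 1.35, 0.57, 1.64, 0.25, 0.81 and 1.15 in libraries 1 to 6, with an SD of 0.52 where the controls had 0.25. Library 4 thus lay within the control range and the other 5 lay above it. Library 3 was above its group's median for 40 of the 42 genes and library 4 for 2. Library 3 also held the highest value of all 24 libraries for 19 genes. Without it, 18 of the 42 genes were called in place of 31, with a median log2 fold change of 0.95. The 13 genes that lost the call there were Cdk1, Plk1, Bub1, Cdca3, Ube2c, Cenpe, Cenpf, Spc24, Kif11, Tpx2, Nusap1, Ncaph and Racgap1. Without library 4, the median was 1.36.

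**Figure D3:**
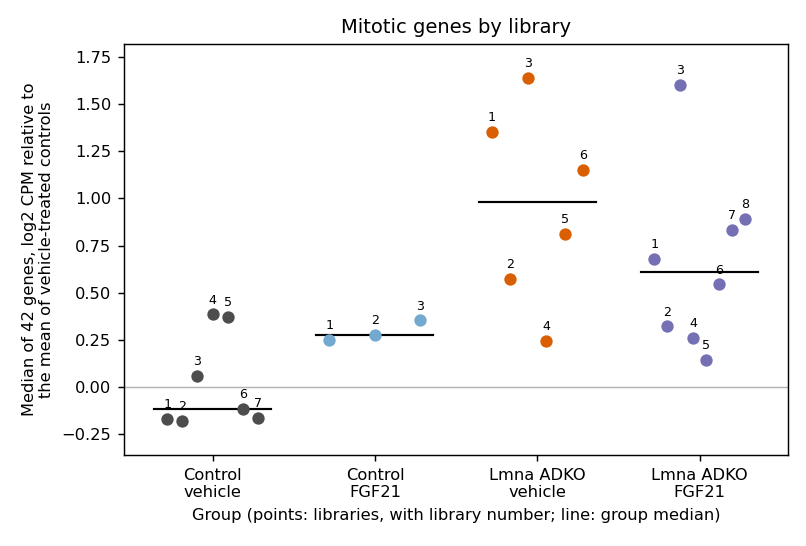
Median of the 42 mitotic genes in each library, as log2 CPM relative to the mean of vehicle-treated controls, by group, with the library number over each point and the group median as a line. Vehicle-treated ADKO libraries run from 0.25 (library 4) to 1.64 (library 3), and FGF21-treated ADKO libraries from 0.15 to 1.602.

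Genotype and the series of animal numbers were nearly confounded under vehicle. The control with a 4-digit number (library 7) had a median of -0.16 and the ADKO mouse with a 3-digit number (library 1) one of 1.35. With the series as a covariate, 28 genes were called. Within each series, however, 1 of the genotypes was represented by a single library.

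Under FGF21, 0 of the 42 genes were called between the genotypes by edgeR, where 2.88% of all genes were called. The fitted value was higher in ADKO liver for 37 genes, the median log2 fold change was 0.52 against 0.02 over all genes, and 9 genes, all fitted higher, had an unadjusted p under 0.05, where 8.78% of all genes were higher at that p. DESeq2 called 2 of the 42 genes, Ect2 and Spc24. The 3 FGF21-treated controls set the precision here, and 0 genes had groups that did not overlap, where 2.98% of all genes lay wholly higher. For Ect2, these controls held 0.808, 0.649 and 1.05 CPM, and the 8 FGF21-treated ADKO livers ranged from 0.858 to 2.53 CPM (median 1.43). A single ADKO library, number 5, lay within the controls (0.92 ± 0.29, edgeR adjusted p = 0.0696). For Spc24, the controls held 2.76, 5.09 and 8.85 CPM and the ADKO livers 7.21 to 14.5 CPM (median 10.2), a log2 fold change of 0.86 ± 0.28 (edgeR adjusted p = 0.0837). For Mad2l1, the controls held 2.23, 2.50 and 2.27 CPM and the ADKO livers 2.27 to 7.17 CPM (median 3.57), a log2 fold change of 0.72 ± 0.24 (edgeR adjusted p = 0.0967).

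Under FGF21, Spc25 held 5.61, 6.04 and 8.44 CPM in the controls and 7.08 to 13.0 CPM (median 8.85) in ADKO livers (0.48 ± 0.21). Smc2 held 2.33, 1.498 and 1.05 CPM in the controls and 1.76 to 4.23 CPM (median 2.25) in ADKO livers (0.68 ± 0.25). In both genes the controls reached into the lower part of the ADKO range. Mki67 held 2.23, 2.15 and 1.17 CPM in the controls and 1.53 to 7.26 CPM (median 2.90) in ADKO livers (0.89 ± 0.42), and Top2a 1.33, 1.55 and 1.11 CPM against 1.01 to 5.68 CPM (median 2.43; 0.84 ± 0.44). Cdk1 held 0.856, 1.199 and 2.39 CPM in the controls and 0.905 to 3.94 CPM (median 1.74) in ADKO livers (0.51 ± 0.46), and Ccna2 1.05, 1.40 and 1.11 CPM against 1.05 to 3.69 CPM (median 1.61; 0.73 ± 0.40). In each of these genes the highest control lay above the lowest ADKO liver. Cdc20 held 0.618, 1.55 and 1.17 CPM in the controls and 0.822 to 3.73 CPM (median 1.27) in ADKO livers, and Cdca3 1.38, 1.498 and 2.21 CPM against 1.16 to 3.995 CPM (median 2.14). Cdca8 held 1.05, 0.849 and 1.11 CPM in the controls and 0.967 to 2.28 CPM (median 1.29) in ADKO livers, and Kif20a 0.998, 0.999 and 0.640 CPM against 0.654 to 2.65 CPM (median 1.21). Pttg1 held 17.9, 20.5 and 28.6 CPM in the controls and 18.4 to 27.2 CPM (median 23.2) in ADKO livers. Aurka held 1.85, 1.90 and 2.62 CPM in the controls and 1.53 to 3.19 CPM (median 1.82) in ADKO livers. In both of these genes the genotypes lay over one another as they did under vehicle. Smc4 held 7.75, 7.54 and 7.45 CPM in the controls and 7.35 to 12.2 CPM (median 9.06) in ADKO livers (0.33 ± 0.15). Single fitted values ran from -0.26 (Cenpf) to 1.28 (Racgap1).

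FGF21 against vehicle within a genotype asks what the treatment did to these genes. In controls, 0 of the 42 were called, where 0.0542% of all genes were, and 0 had an unadjusted p under 0.05, where 3.54% of all genes were higher and 2.62% lower at that p. The median log2 fold change was 0.25, with 34 genes fitted higher and single values from -0.65 ± 0.49 (Racgap1) to 1.06 ± 0.61 (Ttk). The library medians of the 42 genes in FGF21-treated controls were 0.25, 0.28 and 0.35, inside the range of the vehicle-treated controls. All 3 FGF21-treated controls had 4-digit animal numbers, against 1 of the 7 vehicle-treated controls. Treatment and number series were thus nearly confounded in controls as well. The comparison in ADKO livers shares its vehicle-treated libraries with the genotype comparison under vehicle. There, 0 of the 42 were called and 0% of all genes were, while 40 genes were fitted lower with FGF21 and 2 higher (Pttg1 and Spc24). The median log2 fold change was -0.33, and 3 genes had an unadjusted p under 0.05, all lower, where 3.09% of all genes were lower at that p. They were Cenpf (-1.11 ± 0.37), Mad2l1 (-0.43 ± 0.18) and Smc2 (-0.39 ± 0.18), each with an edgeR adjusted p of 0.662 or more. DESeq2 called 0 of the 42 genes in both of these comparisons.

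In the FGF21-treated ADKO livers, too, the genes were high or low together from library to library. The library medians of the 42 genes were 0.68, 0.32, 1.602, 0.26, 0.15, 0.54, 0.84 and 0.89 in libraries 1 to 8, so that 3 of them (2, 4 and 5) lay inside the range of vehicle-treated controls. Library 3 stood far above the rest and held its group's highest value for 32 genes. Without library 3, the median log2 fold change of FGF21 against vehicle in ADKO livers was -0.50 and 0 of the 42 genes were called. In that fit 15 of the 42 genes were lower and 0 higher at an unadjusted p under 0.05, where 5.69% of all genes were lower and 5.18% higher. Without vehicle-treated ADKO library 3, the library with the highest median of all, the median log2 fold change was -0.13. There, 0 of the 42 genes were lower and 0 higher at an unadjusted p under 0.05 (edgeR), where 2.31% of all genes were lower and 3.0% higher. The size of the difference between the treatments in ADKO mice thus moved with single libraries on either side.

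Whether the genotype difference itself changed with FGF21 was tested as an interaction. By edgeR, 0 of the 42 genes were called (0.00417% of all genes were), and 5 had an unadjusted p under 0.05, all towards a smaller genotype difference with FGF21, where 2.5% of all genes were lower at that p. They were Cenpf (-1.76 ± 0.64), Ttk (-1.61 ± 0.73), Nuf2 (-1.48 ± 0.64), Prc1 (-1.40 ± 0.65) and Cdc20 (-1.40 ± 0.66), and their edgeR adjusted p was 0.984. The median over the 42 genes was -0.53, and -0.946 with the animal number series as a covariate. DESeq2 called 0 of the 42. The difference between 31 called genes under vehicle and 0 under FGF21 is therefore not shown to be a difference between the treatments.

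Other genes of the cell cycle place these values. Of 71 further mitotic genes, 25 were called higher and 0 lower in ADKO against control liver under vehicle, with a median log2 fold change of 0.85. At an unadjusted p under 0.05 (edgeR), 45 were higher and 2 lower, where 14.2% of all genes were higher and 12.8% lower. The 2 lower were Hjurp (-0.33 ± 0.15) and Pmf1 (-0.36 ± 0.17). Ccnf, the F-box cyclin, rose from 7.93 ± 2.51 to 14.6 ± 2.20 CPM, Nek2, the centrosomal kinase, from 1.02 ± 0.61 to 3.73 ± 1.36 CPM and Arhgap11a, a RhoA regulator of cytokinesis, from 1.31 ± 0.25 to 3.88 ± 0.91 CPM (SD, n = 7 and n = 6). Of 43 genes of replication and S phase, 9 were called higher and 1 lower, with a median of 0.34. The helicase subunits Mcm2 (1.28 ± 0.22), Mcm6 (1.03 ± 0.22), Mcm3 (0.75 ± 0.11) and Mcm5 (1.12 ± 0.24) rose. Mcm4 (0.56 ± 0.15) passed the p threshold and missed the fold, and Mcm7 (-0.05 ± 0.11, edgeR adjusted p = 0.844) did not differ. Thymidine kinase (Tk1) fell by 1.36 on the log2 scale, from 24.4 ± 8.98 to 9.47 ± 1.59 CPM.

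Some of the regulators were called under vehicle, where 5.12% of all genes were called higher and 3.36% lower. Of 22 cell cycle transcription factors and pocket proteins, 2 were called higher, namely Foxm1, the activator of genes of G2 and mitosis, and E2f1, the activator of genes at the entry to S phase. Foxm1 ranged from 0.281 to 0.778 CPM in controls and from 0.586 to 2.55 CPM in ADKO livers (1.54 ± 0.33, edgeR adjusted p = 0.00147), and E2f1 from 1.36 to 2.76 CPM and from 3.17 to 5.63 CPM (1.22 ± 0.18, edgeR adjusted p = 2.63e-05). E2f1 did not overlap between the groups, and Foxm1 did. Mybl2, which works with MuvB before Foxm1, was at 0.384 ± 0.18 CPM in controls and 0.454 ± 0.12 CPM in ADKO livers (0.24 ± 0.32, edgeR adjusted p = 0.691). Of 9 G1 cyclins and kinases, Ccne1 alone was called (1.04 ± 0.29), and cyclin D1 (Ccnd1), the cyclin of hepatocyte entry into the cycle, was at 70.2 ± 32.6 CPM in controls and 68.7 ± 14.8 CPM in ADKO livers (-0.03 ± 0.29). Of 7 CDK inhibitors, p21 (Cdkn1a), which blocks cyclin-dependent kinases, alone was called, and it rose from 5.33 ± 3.97 to 55.8 ± 23.8 CPM (3.38 ± 0.46, edgeR adjusted p = 3.64e-05). The 15 subunits of the anaphase-promoting complex and the 10 cohesin genes, which are used in resting cells too, gave 0 calls each (edgeR), with medians of -0.07 and 0.05. Both lists held genes that passed the p threshold and missed the fold (lowest edgeR adjusted p 0.0162 and 0.0446). At an unadjusted p under 0.05, 4 of the 15 subunits were higher and 0 lower, and 0 of the 10 cohesin genes were higher and 1 lower. At that p, 14.2% of all genes were higher and 12.8% lower.

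**Figure D4:**
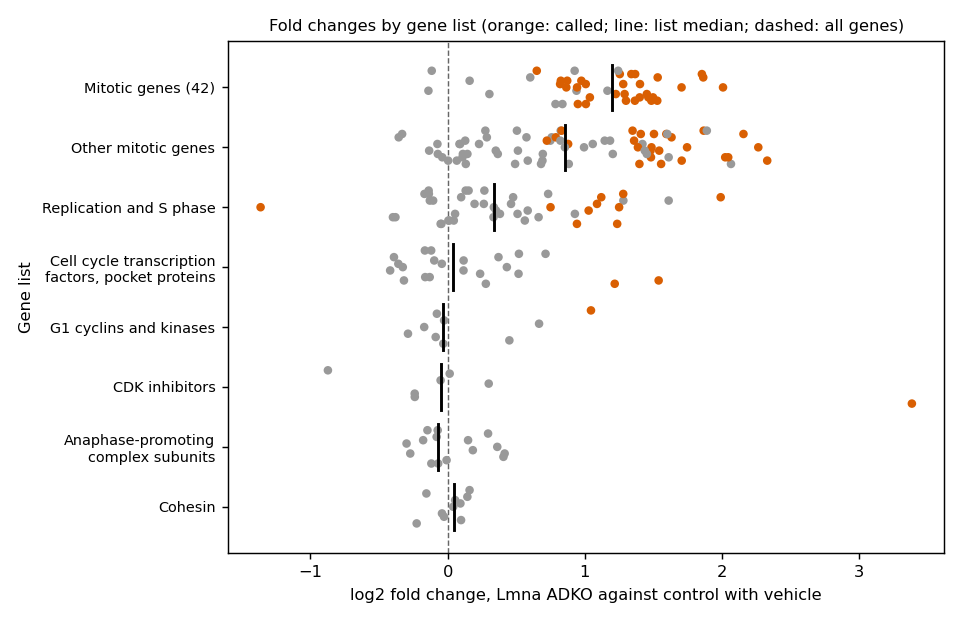
Log2 fold change between Lmna ADKO and control liver under vehicle for the 42 mitotic genes and 7 other lists of cell cycle genes, 1 point per gene, with called genes in orange and list medians as lines. The medians are 1.19 for the 42 genes, 0.85 for other mitotic genes, 0.34 for replication and between -0.07 and 0.05 for the remaining lists.

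Markers of other liver and blood cells were read beside the mitotic genes. Of the 5 cholangiocyte markers, which ductular cells carry, Spp1 was called higher in ADKO liver under vehicle (1.83 ± 0.31), from 32.7 ± 7.28 to 116 ± 38.5 CPM, while the defining markers Krt19 (0.90 ± 0.36, edgeR adjusted p = 0.0933), Epcam, Krt7 and Sox9 were fitted higher and not called. The summed level of all 5 markers was 27.0 to 51.2 CPM in vehicle-treated controls, 32.2 to 38.4 CPM in FGF21-treated controls, 85.8 to 196 CPM in vehicle-treated ADKO livers and 50.3 to 241 CPM in FGF21-treated ADKO livers. Under vehicle most of the sum was Spp1, as the mean of the sum was 38.1 CPM in controls and 125 CPM in ADKO livers. The highest sums of both ADKO groups were in their library 3, the libraries with the highest mitotic medians, and the part of these cells in the result was not tested. Of the erythroid markers, Tfrc and Alas2 were called higher and Klf1 and Epor lower under vehicle. The sum of 7 of these markers, mostly haemoglobin messages, ran from 192 to 1300 CPM in vehicle-treated controls, from 419 to 1952 CPM in FGF21-treated controls, from 492 to 2353 CPM in vehicle-treated ADKO livers and from 766.5 to 4768 CPM (median 2157) in FGF21-treated ADKO livers. Its part in the comparison of treatments in ADKO livers was not tested. The 9 macrophage, 7 lymphocyte, 6 neutrophil and 5 endothelial markers gave 0 calls under vehicle (edgeR). At an unadjusted p under 0.05, where 14.2% of all genes were higher and 12.8% lower, the macrophage list had 3 genes lower, the lymphocyte list 2 lower, the neutrophil list 0 and the endothelial list 1 higher and 2 lower. Their sums ranged from 649 to 919 CPM in controls and 443 to 777 CPM in ADKO livers for macrophages, from 6.29 to 11.98 and 4.53 to 10.5 CPM for lymphocytes, from 1.57 to 13.8 and 4.15 to 7.96 CPM for neutrophils, and from 207 to 266 and 178 to 236 CPM for endothelium. Of 7 hepatocyte markers, Cps1 was called lower, and their sum ran from 72620 to 128500 CPM in controls and from 64900 to 99000 CPM in ADKO livers. Of 5 stellate cell and fibroblast markers, Lrat was called higher, but at an unadjusted p under 0.05 (edgeR) 2 were higher and 2 lower. Their sum ran from 70.3 to 104 CPM in vehicle-treated controls, 74.1 to 84.0 CPM in FGF21-treated controls, 78.7 to 124 CPM in vehicle-treated ADKO livers and 75.7 to 155 CPM in FGF21-treated ADKO livers. This sum, too, was highest in library 3 of both ADKO groups, and its part in the result was not tested. The 3 adipocyte markers summed to at most 0.890 CPM in the vehicle-treated groups, with Lep at 0 in all of their libraries.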

How the data were processed

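Liver RNA of 24 female mice was sequenced. The values are estimated counts per gene, which the authors deposited as whole numbers without normalization. The submitters' processing notes name cutadapt 4.8, FastQC 0.11.8, STAR 2.7.8a, RSEM 1.3.3 and GRCm38, and the methods state that genes with no count in any sample were removed. RSEM shares reads of similar sequences among genes, which can move the values of members with close copies. The labels and the methods name different sequencing providers.

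Groups were read from the library labels. All 23972 genes were fitted in R 4.3.3 with edgeR 4.0.16 (TMM, quasi-likelihood test, 1 model of 4 groups), and the 42 genes were read from that fit. A gene was called at an adjusted p under 0.05 and a fold above 1.5, and standard errors were taken from the log2 fold change and its F value. CPM used TMM-scaled library sizes, and log2 CPM a prior count of 2. The script was tested on simulated data. Genes were placed with GENCODE M21 (GRCm38). Values in single libraries are given for the 12 called members with the highest mean log2 CPM and the highest member of each of 7 role groups, and of each other list up to 3 called genes, with fixed regulators and markers. Members and lists were chosen with earlier results of these data known. Each library came from a different animal, so p-values rest on the spread between libraries of different animals. They cannot separate genotype from the series of animal numbers, with which it was nearly confounded under vehicle. Alternatives were DESeq2 1.42.0, other size factors, a count filter, covariates and left-out libraries. A marker gene of the erythroid list is not reported here.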

Additional observations from a re-analysis of the deposited data

Results flagged for a closer look

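In the 16 genes given by library, 48 groups of 6 to 8 libraries were searched for a single value far from its group, by Dixon's test at the 95% level, and 4 were found. Chance alone gives about 1 in 20. All 4 were FGF21-treated Lmna ADKO library 3. It held 7.175 CPM of Mad2l1 (the other 7 libraries 2.27 to 4.09), 7.258 CPM of Mki67 (1.52 to 4.08), 5.682 CPM of Top2a (1.01 to 2.55) and 3.733 CPM of Cdc20 (0.822 to 1.61). The same library held the group's highest sum of cholangiocyte markers (241 CPM), its highest sum of stellate cell and fibroblast markers (155 CPM, the others 75.7 to 109) and its lowest sum of hepatocyte markers (64630 CPM), and the part of these in the 4 values was not tested.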

How the results depend on the processing

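No paired analysis was possible because the replicate numbers only name animals within a group. Under vehicle, the count of called genes was 28 to 34 under 8 alternatives of tool, scaling, filter, threshold, covariates and samples, and 18 to 32 when 1 library was left out, with the lowest count without ADKO library 3. Of the 31 called genes, 15 were called in all 21 fits and Ttk in the 20 that tested it, 13 lost the call without that library, and Spc24, Bub1, Ncaph, Nusap1 and Racgap1 lost it in 9 or 10 fits each. Under FGF21, 2 genes were called by DESeq2 and 1 each with a count filter and with the length slope as a covariate. Without the 3 libraries whose counts fell most steeply with gene length 1 was called, and 0 to 1 when 1 library was left out. In these fits the genes called were Ect2, Spc24, Mad2l1 (without ADKO library 4) or Smc2 (without control library 1). In the comparisons of treatments and the interaction, 0 genes were called in any fit. The median of the interaction was -0.946 with the animal number series as a covariate. Direction changed in values near 0. With the number series as a covariate, Cenpa under vehicle was 0.0587 and the interaction of Racgap1 was -0.22. Without the 3 libraries whose counts fell most steeply with gene length, Aurka between genotypes under FGF21 was 0.11. For FGF21 in ADKO livers, Spc24 was -0.012 with the length slope, and Cdca8 was 0.0988 and Smc4 0.0523 in animals with 4-digit numbers only. With 1 library left out, genotype differences under FGF21 ran from -0.21 to 0.10 (Aurka), -0.11 to 0.24 (Pttg1) and -0.64 to 0.22 (Cenpf), FGF21 effects in ADKO livers from -0.41 to 0.0876 (Ccna2) and -0.0827 to 0.0338 (Smc4), and the interaction of Racgap1 from -0.0089 to 0.60. The cause was not tested. The 4-digit comparison could not be run between genotypes under vehicle, between treatments in controls or for the interaction, where 1 group holds a single such library. Depth limits the scarcest members, such as Cdc25c, Ttk and Bub1, which had few counts in a library.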
